A study of Mus musculus with 60 samples.

Results

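Endoplasmic reticulum folding and unfolded protein response genes were examined in the mammary glands of 20 ovariectomized mice, which lack ovarian steroid hormones, after hormones had been injected into the abdominal cavity daily for 4 days. Of 37 genes listed by name as chaperones, disulfide isomerases, stress regulators, degradation factors, translocon subunits and export receptors, 34 had at least 1 Affymetrix probe set annotated with that single symbol, out of 15964 genes so named on the 3 array types. Syvn1, Sec61g and Tmed10 had none and are not analysed here. The 34 genes had 72 probe sets. Each was represented by 1 of them, taken from array type A before B before C, and 29 of these representatives were bright enough to be tested.

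The E+P group held 5 animals given 2 µg of 17-beta-estrogen together with 1 mg of progesterone. The E group held 4 animals given 2 µg of 17-beta-estrogen, and the P group 4 animals given 1 mg of progesterone. The E+P CFP group held 3 animals given both hormones whose fat pads were free of epithelium. The V group held 4 animals given 100 µl of sesame oil as vehicle. All animals were without ovaries, and lymph nodes were cut out at collection. Strain, age and batch were not given in the sources used here. An intact gland is a mixture of epithelium, fat, connective tissue, vessels and immune cells, and the values are those of whole tissue. The fat marker Adipoq was above the floor, the lowest value kept, in all 20 samples, and the luminal markers Krt8, Krt19 and Epcam were above it in all 17 glands. Values below are Affymetrix signal intensities on a linear scale unless a log2 difference is named, and they are comparable between animals for one gene but not between genes.

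The endoplasmic reticulum folds proteins that enter the secretory pathway, with chaperones such as BiP (Hspa5), the lectins calnexin and calreticulin, and isomerases that form disulfide bonds or turn proline bonds. When unfolded protein accumulates, the sensors Ire1, Perk and Atf6 start the unfolded protein response. Their transcription factors, spliced Xbp1, Atf4 and cleaved Atf6, raise chaperone and degradation genes, and Ddit3 (Chop) follows under lasting stress. Secretory epithelium of the lactating mammary gland and antibody-secreting plasma cells are rich in this machinery.

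Promoter windows are shown first for 4 genes, because the factors of the response are known to bind defined letters near the start of their targets. The ER stress response element (ERSE), bound by Atf6 and Xbp1, was searched as CCAAT and CCACG with 9 bases between them, and ERSE-II as ATTGG and CCACG with 1 base between them. Both were searched on both strands of the RefSeq windows of build GRCm38.p6, which hold 250 bases before and 50 after each gene's start. Below are the 250 bases before the start, 5′ to 3′ on the gene's strand. Hspa5 (chr2:34771840-34772089, plus strand) is the standard marker of the response, Herpud1 (chr8:94386179-94386428, plus strand) had the smallest adjusted p of the interaction of both hormones, Creld2 (chr15:88819396-88819645, plus strand) carries the element on the opposite strand, and Tmed3 (chr9:89705044-89705293, minus strand) was the gene past the threshold in the hormone comparisons. Capitals mark the letters of ERSE or ERSE-II and, in Herpud1, also of the amino acid response element TTGCATCA bound by Atf4 and its partners.
Hspa5: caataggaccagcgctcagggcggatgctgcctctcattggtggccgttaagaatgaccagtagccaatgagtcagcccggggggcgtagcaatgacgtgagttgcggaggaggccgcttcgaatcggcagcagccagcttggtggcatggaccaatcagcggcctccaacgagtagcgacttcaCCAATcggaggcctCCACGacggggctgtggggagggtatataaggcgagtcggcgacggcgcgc
Herpud1: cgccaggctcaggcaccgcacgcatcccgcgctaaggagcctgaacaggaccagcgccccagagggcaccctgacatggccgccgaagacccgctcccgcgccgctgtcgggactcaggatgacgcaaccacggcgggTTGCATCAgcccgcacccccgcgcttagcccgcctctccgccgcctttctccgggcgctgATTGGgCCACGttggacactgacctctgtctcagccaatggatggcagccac
Creld2: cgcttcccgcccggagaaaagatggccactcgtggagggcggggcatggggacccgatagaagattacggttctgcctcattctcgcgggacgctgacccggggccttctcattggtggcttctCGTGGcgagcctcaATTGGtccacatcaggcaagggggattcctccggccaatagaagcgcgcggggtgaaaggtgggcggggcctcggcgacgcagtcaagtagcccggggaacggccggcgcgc
Tmed3: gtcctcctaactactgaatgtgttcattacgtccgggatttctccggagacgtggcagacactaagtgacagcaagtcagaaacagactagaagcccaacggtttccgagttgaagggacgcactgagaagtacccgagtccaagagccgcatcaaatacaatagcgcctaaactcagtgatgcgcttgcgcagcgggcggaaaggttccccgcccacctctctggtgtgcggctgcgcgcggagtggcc

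The Hspa5 element lay 65 to 47 bases before the start and that of Creld2 126 to 108 bases before it. Windows were available for 27 of the 34 genes. ERSE was found in 7 of them (25.9%), in Hspa5, Hsp90b1, Calr, Canx, Creld2, Dnajc3 and Pdia6, against 0.137% of the 27025 genes with a window. ERSE-II was found in 2 (7.41%), Dnajb11 and Herpud1, against 0.0444% of all genes with a window. The element TGACGTGG, which shares the letters CCACG of the other strand with both, was found in 0 of 27, against 0.714% of all genes, and TTGCATCA in 1 (Herpud1), against 1.03%. The estrogen response element, GGTCA and TGACC with 3 bases between them, was found in 0 of 27, against 0.074%. The single arm GGTCA alone was found in 13 of 27 (48.1%), against 43.6% of all genes. These counts describe letters in the windows and were not tested. The genes were listed by name for a pathway whose factors are known to bind ERSE. A share of ERSE or ERSE-II above that of all genes is therefore not an independent finding.

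Values in every animal are given first for the 3 genes past the threshold in some comparison, Tmed3, Derl1 and Rcn1, and for the stress genes Herpud1 and Hspa5. Tmed3, a p24 family cargo receptor of vesicles between the reticulum and the Golgi, had signals of 742, 618, 908, 764 and 607 in the E+P glands. Its signals were 1430.4, 1009.9, 1099 and 1440.0 in the E glands. They were 611, 543, 582 and 530.0 in the P glands, 376, 439 and 479 in the E+P CFP pads and 589.9, 720.2, 701 and 689 in the V glands. Every E gland was above every other sample for this gene, and the 3 fat pads were below all glands. A second Tmed3 probe set was too dim to be tested, so this rests on 1 probe set, as do Herpud1, Hspa5 and Pdia3.

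Herpud1, which links the degradation machinery of the reticulum membrane and is a classic stress target, had signals of 229.8, 218, 275, 266 and 163 in the E+P glands. It had 377, 405, 265 and 295 in the E glands, 294, 273, 356 and 327 in the P glands, 204, 277 and 207 in the fat pads, and 216, 224, 209.6 and 183 in the V glands. The E and the P glands were each above all V glands, while the E+P glands overlapped the V glands. Hspa5 had signals of 852, 983, 933, 785 and 914 in the E+P glands, 1147, 1563, 1231 and 876 in the E glands and 1137, 956, 1173 and 1377 in the P glands. It had 1163, 1177 and 1240.4 in the fat pads and 936, 967, 922 and 908 in the V glands. For Hspa5 the E glands spread most, with 3 animals above and 1 below all V glands, and the V glands lay close together.

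Derl1, a channel component that moves misfolded protein out of the reticulum, had signals of 375, 349.9, 436, 403 and 379 in the E+P glands, against 841, 661 and 721 in the fat pads. Its signals were 498, 404, 515 and 365 in the E glands, 398, 381, 544 and 489 in the P glands and 505, 505, 571 and 460.4 in the V glands. All 3 fat pads were above all 17 intact glands. Rcn1, a calcium-binding protein of the reticulum lumen, had 169, 231, 165, 166 and 208 in the E+P glands, against 112, 117 and 153 in the fat pads. It had 156, 133, 174 and 136 in the E glands, 161, 152, 185 and 173 in the P glands and 136, 152, 130.3 and 163 in the V glands. The E+P glands were above the fat pads without overlap, though the highest fat pad was near the lowest E+P glands.

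**Figure D1:**
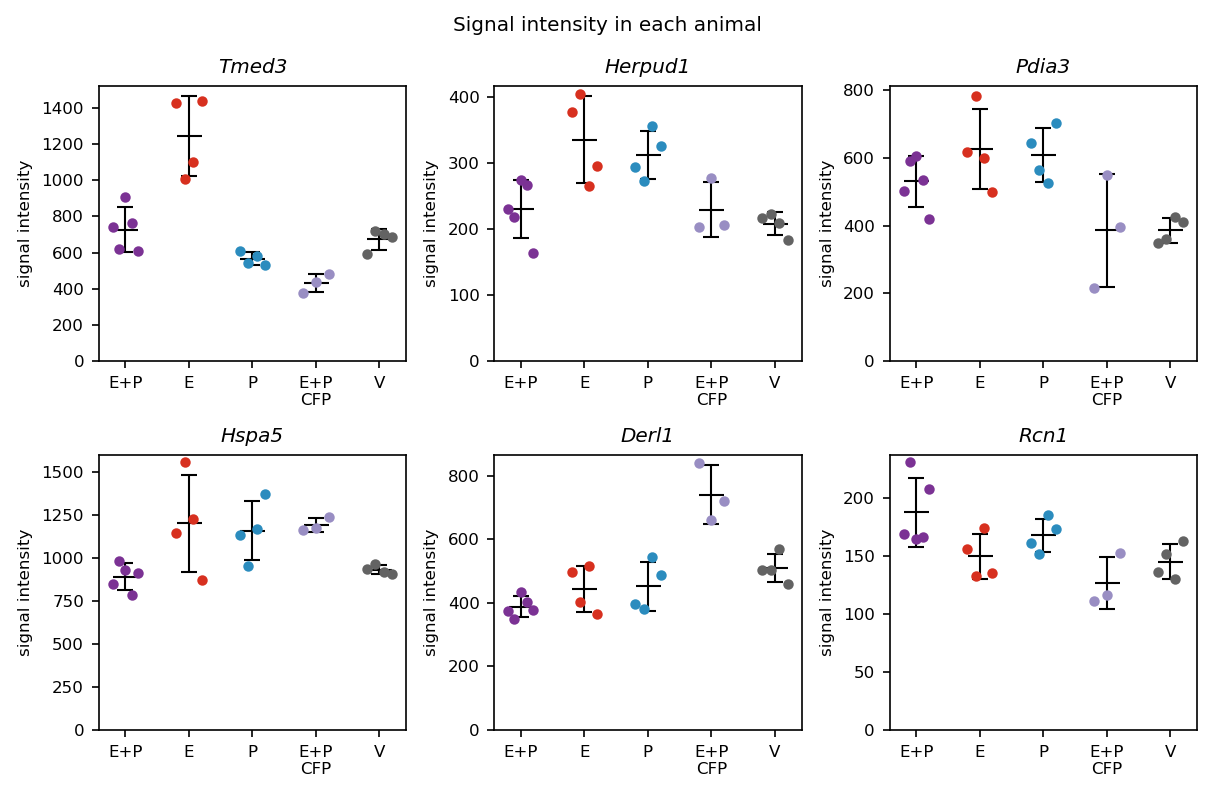
Signal intensity (vertical axis, linear scale from 0) of 6 genes in each animal, by group along the horizontal axis; each point is 1 animal, and bars show the mean ± SD. Tmed3 stood at 1245 ± 223 in the 4 E glands, above all other groups, and Derl1 at 741 ± 91.9 in the 3 fat pads.

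The first comparison asks what estrogen alone did. Among the 29 tested genes, Tmed3 rose and no other passed the threshold of an adjusted p under 0.05. Its mean signal was 1245 ± 223 in E glands and 675 ± 58.2 in V glands (SD, n = 4 each), a log2 difference of 0.87 ± 0.14 (SE), or 1.83-fold (limma, adjusted p = 0.00882). Over all 23062 tested probe sets 0.178% passed in this comparison. In whole tissue, more cells of a type and more RNA per cell cannot be told apart. The luminal epithelial marker score, a mean of centred log2 signals of 10 genes, ran from 0.20 to 1.01 in E glands and from 0.36 to 0.56 in V glands. Of the 10 luminal markers, 1 (Krt19) passed the threshold upward here, and the part of epithelial content in the Tmed3 difference was not tested.

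Of the 29 genes, 23 had a positive difference, with a median of 0.22 on the log2 scale, beside a median of 0.00088 over 10898 tested genes. At an unadjusted p under 0.05 stood 8 of the 29 genes (27.6%), beside 12.1% of all probe sets. Here and in the comparisons below, the genes count 1 probe set each and were not matched for signal to all probe sets. Within groups they varied less, with a median residual SD of 0.24 log2, beside 0.32 over all tested genes. Pdia3, the disulfide isomerase that works with calnexin and calreticulin, had the value 0.68 ± 0.21 (adjusted p = 0.189) and Herpud1 0.67 ± 0.17 (adjusted p = 0.114). Hspa5 was at 0.34 ± 0.14 (adjusted p = 0.334). The cargo receptor Tmed2 was at 1.07 ± 0.42 (adjusted p = 0.308), with 1 V gland at the floor, and the translocon subunit Sec61b at 0.43 ± 0.17 (adjusted p = 0.330). By role, all 5 tested isomerases, all 3 translocon genes and all 3 export receptors were positive, as were 8 of 11 chaperones and calcium-binding proteins, 2 of 3 regulators and 2 of 4 degradation factors.

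These differences were uneven between animals. The median deviation of the 29 genes from their own 20-animal means was 0.06, 0.38, 0.20 and -0.08 log2 in the 4 E glands, against -0.03, -0.0044, -0.07 and -0.15 in the 4 V glands. In E 2 and in E 3, 24 of 29 genes were above their own mean, and the same count over all tested genes was not computed. The E group also differed in a measure of RNA quality: the Gapdh ratio, which divides the signal of the 3' control probe set by that of the 5' one and grows as RNA is broken or copied short, ran from 1.24 to 1.72 in E glands and from 1.97 to 3.69 in V glands, with no overlap. With this ratio in the model, Tmed3 kept a difference of 0.81 with an adjusted p of 0.0586, which ended the call. The lymphocyte marker score ran from 0.38 to 1.73 in E glands and from -1.35 to 1.32 in V glands, and with it in the model the Tmed3 difference was 0.89 (adjusted p = 0.0621). Without E 4 its adjusted p was 0.0532.

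The second comparison asks what progesterone alone did. None of the 29 genes passed in limma, and none of the 23062 probe sets did (0%). At an unadjusted p under 0.05 stood 5 of the 29 genes (17.2%), beside 8.05% of all probe sets. Herpud1 was at 0.58 ± 0.17 (adjusted p = 0.408), Pdia3 at 0.66 ± 0.21 (adjusted p = 0.450), Tmed2 at 1.19 ± 0.42 (adjusted p = 0.483) and the lectin chaperone calnexin (Canx) at 0.34 ± 0.16 (adjusted p = 0.608). Of the 29 genes, 17 had a positive difference, with a median of 0.046 on the log2 scale, beside 0.0026 over all tested genes. Tmed3 was at -0.25 ± 0.14 (adjusted p = 0.681).

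With both hormones against vehicle, none of the 29 genes passed in limma, beside 0.46% of the probe sets. At an unadjusted p under 0.05 stood 4 of the 29 genes (13.8%), beside 10.7% of all probe sets. Derl1 was at -0.39 ± 0.13 (adjusted p = 0.219), Rcn1 at 0.36 ± 0.14 (adjusted p = 0.330), Tmed2 at 1.00 ± 0.40 (adjusted p = 0.347), Pdia3 at 0.45 ± 0.20 (adjusted p = 0.407) and the proline isomerase cyclophilin B (Ppib) at 0.24 ± 0.12 (adjusted p = 0.503). Tmed2 passed when V 1, the brightest of its V glands at 198, was left out (1.55, adjusted p = 0.0489). Tmed3 was at 0.097 and did not pass. The median difference was 0.078 with 16 of 29 genes positive, beside a median of 0.021 over all tested genes, and it was -0.053 when arrays were scaled to a common median. The E+P, E and P comparisons against vehicle share the 4 V glands and are not independent.

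**Figure D2:**
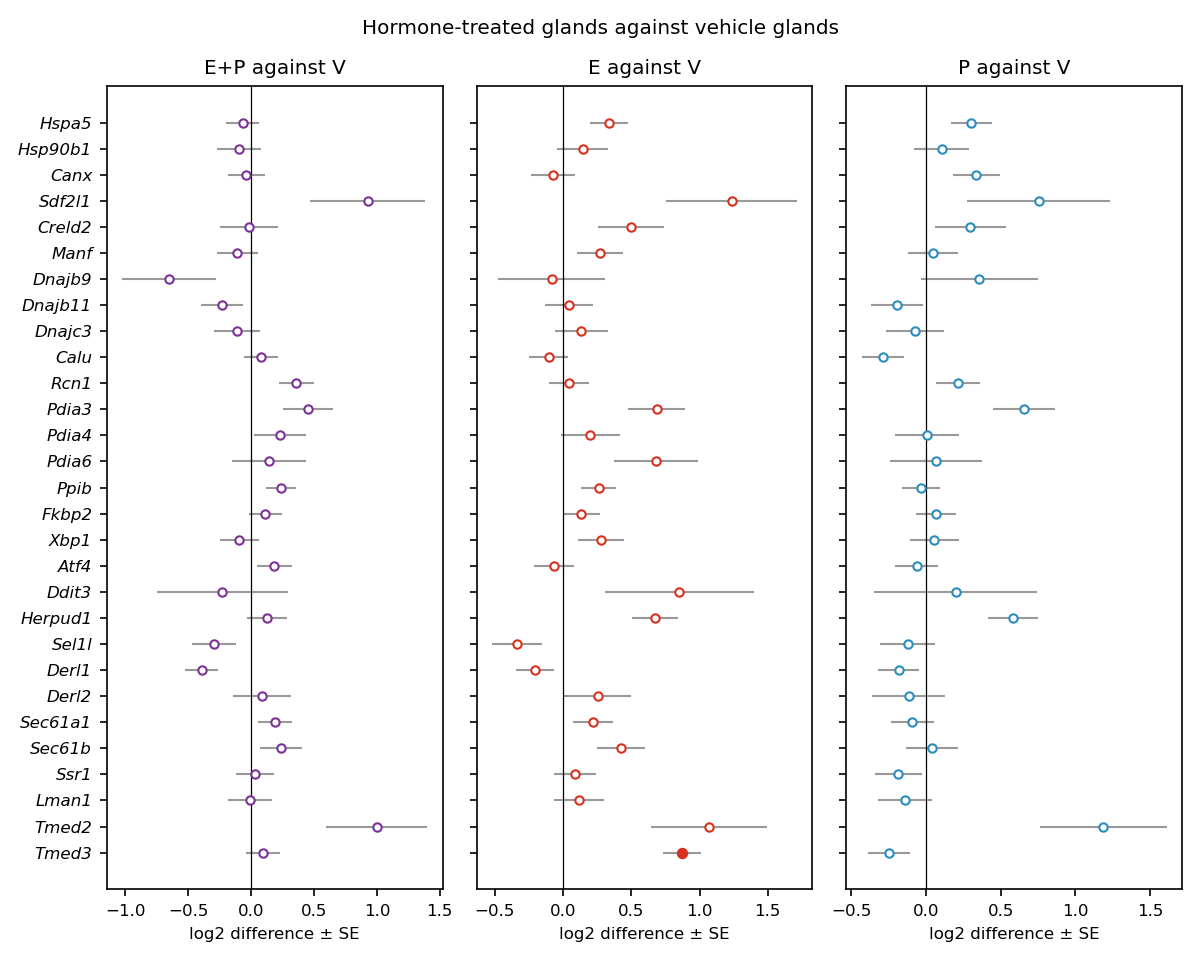
Log2 difference from the V glands with its standard error (horizontal axis) for each of the 29 tested genes, ordered by role, in E+P, E and P glands. The filled point marks an adjusted p under 0.05, reached by Tmed3 in E glands (0.87); all others are open.

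Set against estrogen alone, the E+P glands had less Tmed3. Its mean signal was 728 ± 123 in E+P glands (SD, n = 5) and 1245 ± 223 in E glands (SD, n = 4), and it fell by 0.77 ± 0.13 on the log2 scale (limma, adjusted p = 0.0173), with no overlap. This was 1 of 29 genes, beside 0.143% of all probe sets. The call was lost without E+P 2, E+P 5, E 1 or E 4 (adjusted p of 0.0595, 0.0530, 0.0808 and 0.0663), where the Tmed3 difference was between -0.72 and -0.70. It was also lost with the Gapdh ratio in the model (-0.73, adjusted p = 0.104), with the lymphocyte score in it (-0.79, adjusted p = 0.0588), and with only the groups compared fitted (-0.77, adjusted p = 0.106). That ratio ran from 1.49 to 2.76 in E+P glands, against 1.24 to 1.72 in E glands.

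Of the 29 genes, 23 had a negative difference between E+P and E glands, with a median of -0.19, beside 0.019 over all tested genes. At an unadjusted p under 0.05 stood 7 of the 29 genes (24.1%), beside 9.95% of all probe sets. Herpud1 was at -0.54 ± 0.16 (adjusted p = 0.239), Hspa5 at -0.40 ± 0.13 (adjusted p = 0.288), the trophic factor Manf at -0.38 ± 0.16 (adjusted p = 0.420) and Xbp1 at -0.37 ± 0.16 (adjusted p = 0.422). Rcn1 lay the other way at 0.32 ± 0.14 (adjusted p = 0.441), and Creld2 was at -0.51 ± 0.23 (adjusted p = 0.453) and Ddit3 at -1.08 ± 0.52 (adjusted p = 0.503). Pdia6 was at -0.54 ± 0.29 (adjusted p = 0.572), Dnajb11 at -0.28 ± 0.17 (adjusted p = 0.630) and Dnajb9 at -0.57 ± 0.37 (adjusted p = 0.663); the last pair are BiP's J-domain partners. The median was 0.013 with the Gapdh ratio in the model.

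Against progesterone alone, no gene passed in limma, beside 0.351% of all probe sets. At an unadjusted p under 0.05 stood 8 of the 29 genes (27.6%), beside 11.4% of all probe sets. Herpud1 was at -0.46 ± 0.16 (adjusted p = 0.244), Hspa5 at -0.37 ± 0.13 (adjusted p = 0.250), the calcium-binding Calu at 0.37 ± 0.13 (adjusted p = 0.258), Dnajb9 at -1.01 ± 0.37 (adjusted p = 0.260), Tmed3 at 0.35 ± 0.13 (adjusted p = 0.286) and Canx at -0.37 ± 0.15 (adjusted p = 0.323). Positive and negative differences were nearly balanced, at 14 and 15, with a median of -0.035.

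Between the single hormones Tmed3 was again the gene that passed. Its mean was 1245 ± 223 in E glands and 567 ± 37.0 in P glands (SD, n = 4 each), a log2 difference of 1.12 ± 0.14 or 2.17-fold (limma, adjusted p = 0.00140), beside 0.0564% of all probe sets. This call held in all 20 fits that left out 1 animal, with adjusted p from 0.00073 to 0.0129. The luminal score ran from 0.20 to 1.01 in E glands and from -0.16 to 0.31 in P glands, 1 of the 10 luminal markers (Krt19, 1.18, adjusted p = 0.0425) passed as higher in E glands, and their part in the Tmed3 difference was not tested. By adjusted p the next genes were Canx at -0.41 ± 0.16 (adjusted p = 0.508), Ppib at 0.29 ± 0.13 (adjusted p = 0.569) and Sec61b at 0.39 ± 0.17 (adjusted p = 0.599). Ddit3 at 0.65 ± 0.55, Pdia6 at 0.61 ± 0.31, Sdf2l1 at 0.48 ± 0.48 and Dnajb9 at -0.44 ± 0.39 had differences of larger size with larger errors. The median was 0.20 with 22 of 29 genes positive, but 0.026 without E 2.

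The interaction asks whether the joint response departs from the sum of the single ones on the log2 scale, as (E+P minus E) minus (P minus V). None of the 29 genes passed in limma, beside 0.0737% of all probe sets, and 7 stood at an unadjusted p under 0.05 (24.1%), beside 11.7% of all probe sets. Herpud1 came nearest at -1.13 ± 0.23 (adjusted p = 0.0687), with adjusted p from 0.0535 to 0.165 over the fits leaving out 1 animal. In its values, the E and P glands were both high and the E+P glands were not. Hspa5 was at -0.71 ± 0.19 (adjusted p = 0.170), Pdia3 at -0.89 ± 0.29 (adjusted p = 0.251) and Creld2 at -0.81 ± 0.33 (adjusted p = 0.343). Calu was at 0.48 ± 0.20 (adjusted p = 0.349) and Tmed2 at -1.26 ± 0.58 (adjusted p = 0.412). Tmed3 was at -0.52, with adjusted p from 0.268 to 0.438 over the fits leaving out 1 animal. A departure from the sum of the single responses was therefore not shown for Tmed3.

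The median interaction was -0.23 with 20 of 29 genes negative, beside 0.024 over all tested genes, and it was -0.096 with the Gapdh ratio in the model. The 8 tested genes with ERSE or ERSE-II in their window were all negative, from -1.13 to -0.08 with a median of -0.47. Over all tested genes 52.5% were positive. Of 15 tested genes whose window held neither, 9 were negative, with a median of -0.09, and among the 6 genes with no window available, 3 were negative. In the other comparisons the same split gave medians, with the element first, of 0.24 and 0.25 in E against V, 0.20 and 0.0042 in P against V, -0.05 and 0.10 in E+P against V, -0.34 and -0.17 in E+P against E, -0.26 and 0.20 in E+P against P, 0.15 and 0.22 in E against P and -0.08 and -0.02 in E+P glands against fat pads. These comparisons share samples, and the genes of each split were measured in the same animals, so they are not replicates. The split by motif was not a planned comparison and is a description that was not tested. It was not repeated with the Gapdh ratio in the model. Translocon genes (Sec61a1, Sec61b, Ssr1) were spread from -0.23 to 0.13, and the degradation factors other than Herpud1 from -0.05 to 0.17.

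**Figure D3:**
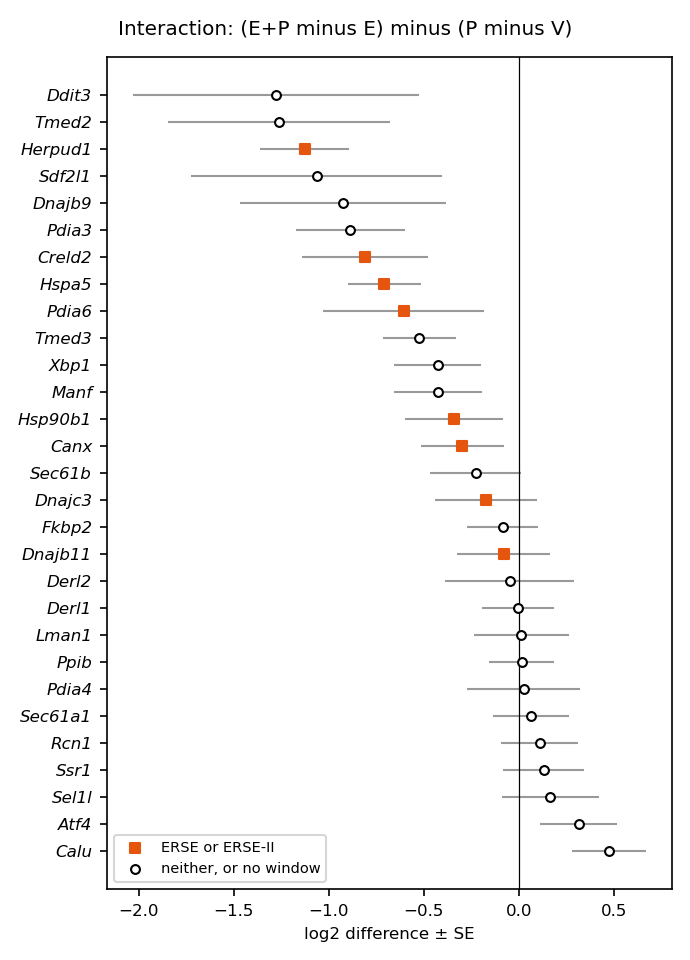
Interaction value (E+P minus E, minus the difference of P and V) with its standard error on the log2 scale (horizontal axis) for the 29 tested genes, sorted. Squares are the 8 genes with ERSE or ERSE-II in the promoter window, all below 0, a split that was not tested. None of the 29 passed the threshold.

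The transcription factors gave no call in any of these hormone comparisons. Xbp1, the factor spliced by Ire1, had signals of 599, 480.4, 586, 634 and 489 in E+P glands, 694, 811, 809.5 and 579 in E glands, 701, 552, 491 and 748 in P glands, 575, 736 and 726 in the fat pads and 781, 587, 554 and 479.9 in V glands. Atf4, whose translation is raised when Perk phosphorylates its translation factor, had 555, 713, 635, 712 and 849 in E+P glands, 557, 647, 619.5 and 495 in E glands, 458, 608, 659 and 607 in P glands, 859, 594 and 716 in the fat pads and 659, 564, 569.7 and 629 in V glands. Both overlapped between all groups, and a 3' array does not separate spliced from unspliced Xbp1. Ddit3 had 67.7, 93.5, 38.7, 18.5 and 11.3 in E+P glands, with 1 at the floor, and 81.8, 64.0, 85.7 and 75.8 in E glands. It had 36.5, 21.1, 86.4 and 83.3 in P glands, 70.9, 92.5 and 87.4 in the fat pads and 19.6, 55.0, 78.4 and 37.9 in V glands. It was dim and spread widely, with a residual SD of 0.85 log2.

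Of the 11 tested chaperones and calcium-binding proteins, 6 had their highest E value in the animal E 2, as did 18 of all 29 genes. The share over all tested genes was not computed, so these counts are not shown to be particular to the 29. Hsp90b1 (Grp94) had 1358, 1526, 1221, 1023 and 1609.9 in E+P glands and 1333, 2356, 1395 and 1381 in E glands. It had 1284, 1383, 1929.9 and 1588 in P glands, 1774, 1160.1 and 1619.8 in the fat pads and 1303, 1432, 1419 and 1542 in V glands. Creld2, a small disulfide isomerase, had 90.9, 135, 112, 93.6 and 112 in E+P glands, 114, 298, 118 and 141 in E glands, 108, 140.1, 165 and 128 in P glands, 148, 116 and 178 in the fat pads and 115, 105, 95.3 and 122 in V glands. Manf had 227, 283, 232, 236 and 222 in E+P glands, 262, 497, 308 and 231 in E glands, 273, 269, 234 and 291 in P glands, 268, 285 and 312 in the fat pads and 252, 259, 257 and 263 in V glands. In these 3 genes E 2 was the highest E gland, whereas Dnajc3, another luminal cochaperone, ran from 248 to 281 in the E glands.

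Sdf2l1, a cofactor of BiP measured on array type B, had 148, 281, 145, 239.8 and 202 in E+P glands, 156, 501, 216 and 207 in E glands, 288, 154, 181 and 115 in P glands, 55.9, 142 and 181 in the fat pads and 167, 208, 107 and 30.9 in V glands. Its difference between E and V glands was 1.23 ± 0.48 (adjusted p = 0.298). The isomerase Pdia4 (Erp72) had 509, 330.0, 388, 385 and 414 in E+P glands, 335, 613, 431 and 269.6 in E glands, 283, 289, 453 and 376 in P glands, 273, 424 and 407 in the fat pads and 361, 373, 302 and 338 in V glands. In Sdf2l1, Pdia4 and Hspa5 the highest E gland was E 2 as well. On array type A, from which the Gapdh ratios here are taken, that of E 2, 1.24, was the lowest of the 20 animals. On array type C the ratio of E+P CFP 2 was lower (1.16, against 1.23 in E 2). E 2 also had the highest lymphocyte score of the 20 animals, 1.73, and the lowest luminal score of the E glands, 0.20.

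**Figure D4:**
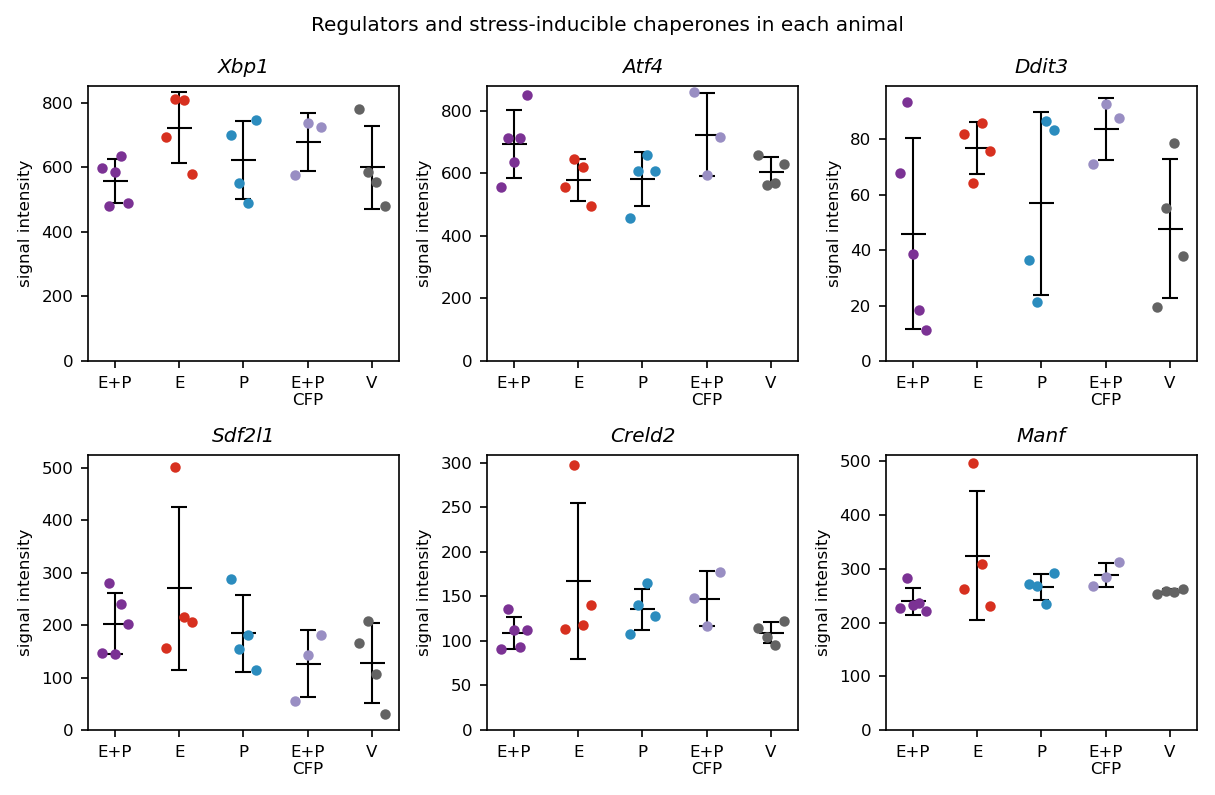
Signal intensity (vertical axis, linear scale from 0) of 3 regulators and 3 stress-inducible luminal chaperones in each animal, by group along the horizontal axis; each point is 1 animal, and bars show the mean ± SD. In Sdf2l1, Creld2 and Manf a single E gland (501, 298 and 497) stands above the rest of its group.

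Whether the genes move together from animal to animal inside the groups was examined as the slope of each gene on Hspa5, with both centred on their group means, in a limma fit over 23061 probe sets. None of the other 28 tested genes passed and none of all probe sets did (0%); at an unadjusted p under 0.05 stood 5 of the 28 genes, all positive, beside 4.23% of all probe sets. These were Manf at 0.95 ± 0.24 log2 per log2 of Hspa5 (adjusted p = 0.786), the cochaperone Dnajb11 at 0.92 ± 0.26, Pdia4 at 1.07 ± 0.33, Hsp90b1 at 0.85 ± 0.30 and Creld2 at 0.95 ± 0.41. The slope was positive in 23 of 28 genes with a median of 0.41, beside -0.03 over all tested genes. Tmed3 had a slope of -0.46 ± 0.25 and Canx of -0.42 ± 0.29. The median was 0.24 without E 4 and between 0.36 and 0.48 without any other single animal.

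Plasma cells are rich in this machinery, so the slope on the lymphocyte and plasma cell marker score was fitted in the same way. None of the 29 genes passed in limma, beside 1.39% of all probe sets, and 1 of them, Creld2 at 0.18 ± 0.09 log2 per unit of score, stood at an unadjusted p under 0.05, beside 10.2% of all probe sets. The median slope of the 29 genes was -0.0060. Within groups the 29 genes varied with a median residual SD of 0.24 log2, beside 0.32 over all tested genes. The genes set side by side here were not matched for signal, on which the model lets the spread depend. Ppib was the steadiest at 0.16 and Ddit3 the widest at 0.85.

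The last comparison sets intact glands against epithelium-free fat pads, both given estrogen and progesterone. Here 3 of 29 genes passed, beside 7.9% of all probe sets. Derl1 was lower, at 389 ± 32.5 in E+P glands (SD, n = 5) and 741 ± 91.9 in the fat pads (SD, n = 3), a log2 difference of -0.93 ± 0.14 (limma, adjusted p = 1.70e-04). A second Derl1 probe set gave -0.10 ± 0.13 (adjusted p = 0.748), so the probe sets disagree. Tmed3 was higher, at 728 ± 123 in E+P glands and 431 ± 52.0 in the fat pads, with a difference of 0.75 ± 0.15 or 1.68-fold (adjusted p = 0.00217). Rcn1 was higher, at 188 ± 30.0 in E+P glands and 127 ± 22.5 in the fat pads, with a difference of 0.56 ± 0.15 (adjusted p = 0.0249), which was lost without E+P 2, E+P 5, E+P CFP 1 or E+P CFP 2 (adjusted p of 0.0642, 0.0597, 0.148 and 0.102).

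Short of the threshold, Ppib was at 0.38 ± 0.13 (adjusted p = 0.0808), Hspa5 at -0.42 ± 0.14 (adjusted p = 0.0828), Pdia3 at 0.55 ± 0.21 (adjusted p = 0.139) and the degradation adaptor Sel1l at -0.46 ± 0.19 (adjusted p = 0.168). Leaving out 1 animal brought Hspa5 past the threshold without E 2 or E 4 (adjusted p of 0.0441 and 0.0406), Ppib without P 3 (0.0135) and Pdia3 without E+P CFP 2 (0.0167). E 2, E 4 and P 3 are outside the groups compared here and enter through the shared estimate of the spread. Without them the differences stayed at -0.42 for Hspa5 and 0.38 for Ppib. The median was -0.02 with 12 of 29 genes positive, beside 0.024 over all tested genes. When arrays were scaled to a common median, the median of all tested probe sets moved by -0.13 and that of the 29 genes to -0.24. Hspa5 at -0.65 (adjusted p = 0.0141) and Sel1l at -0.68 (adjusted p = 0.0318) then passed the threshold in limma. Rcn1 lost its call under that scaling (0.34, adjusted p = 0.217). By role, 4 of 5 isomerases were positive, and all 3 regulators and all 4 degradation factors were negative.

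The tissues differed in content. All 10 luminal markers passed the threshold as higher in E+P glands, with scores from 0.70 to 1.29 in E+P glands and from -3.36 to -3.13 in the fat pads, where Krt8, Krt19, Epcam and Cldn7 were at the floor in all 3 samples. All 6 skeletal muscle markers passed as lower in E+P glands, with scores from -1.07 to 0.44 in E+P glands and from 2.38 to 3.11 in the fat pads. Of 8 adipocyte markers 5 passed as lower, with scores from -0.50 to 0.0076 in E+P glands and from 0.26 to 0.49 in the fat pads. Of the other markers 2 of 4 basal and 1 of 7 fibroblast markers passed as higher, 1 of 7 endothelial markers as lower, and none of 18 lymphocyte and 6 macrophage markers passed. The muscle score did not overlap between these tissues, and with it in the model 314 of all probe sets passed, against 1823 without it. None of the 3 genes did: Derl1 was at -0.69 (adjusted p = 0.177), Tmed3 at 0.82 (adjusted p = 0.116) and Rcn1 at 0.75 (adjusted p = 0.180). The part of tissue content in these differences was not tested further, and the Gapdh ratio ran from 1.49 to 2.76 in E+P glands and from 1.26 to 4.39 in the fat pads.

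**Figure D5:**
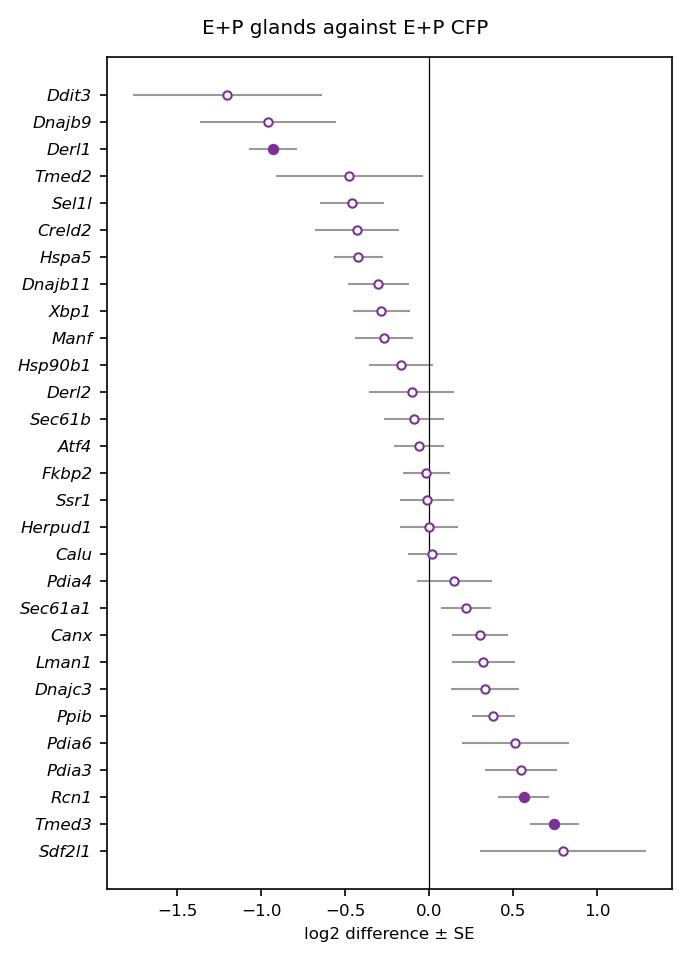
Log2 difference between E+P glands and E+P CFP fat pads with its standard error (horizontal axis) for the 29 tested genes, sorted. Filled points mark an adjusted p under 0.05: Derl1 at -0.93, Rcn1 at 0.56 and Tmed3 at 0.75.

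Other pathway genes were read from lists of stress sensors and effectors, oxidative folding enzymes, signal recognition and signal peptidase subunits and glycosylation enzymes. Degradation partners, vesicle transport genes (among them other Tmed genes) and collagen folding factors were read too. Of these 107 genes, 91 were tested. None passed in limma in the 6 pairwise comparisons among E+P, E, P and V glands or in the interaction, where 5 to 11 of the 91 (5.49% to 12.1%) stood at an unadjusted p under 0.05, beside 7.90% to 12.1% of all probe sets. Their median difference in E against V was 0.03 with 50 of 91 genes positive. In E+P glands against fat pads 5 passed as higher and 1 as lower, beside the 7.9% of all probe sets. The peroxiredoxin Prdx4, which oxidises disulfide isomerases, was at 1.00 ± 0.17 (adjusted p = 6.03e-04) and the membrane-bound transcription factor Creb3l2 at 1.06 ± 0.20 (adjusted p = 0.00132). The signal peptidase subunit Sec11a was at 0.55 ± 0.14 (adjusted p = 0.0157), the mannosidase Man1a at 0.78 ± 0.23 (adjusted p = 0.0357) and the glucosidase Mogs at 0.78 ± 0.24 (adjusted p = 0.0461). Ppp1r15b, a phosphatase subunit that reverses the block on translation, was at -0.66 ± 0.15 (adjusted p = 0.00876).

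Some genes could not be followed. The probe sets representing Calr, Hyou1, P4hb, Edem1 and Ssr4 were too dim to be tested. Calreticulin (Calr) had signals of 4.80, 8.09, 2.90, 7.70 and 15.9 in E+P glands, 3.10, 5.30, 5.00 and 9.80 in E glands, 9.89, 16.2, 2.60 and 11.99 in P glands, 11.4, 10.5 and 1.40 in the fat pads and 25.5, 2.30, 14.3 and 4.20 in V glands. Hyou1 (Grp170) stayed between 0.70 and 2.30 in all 20 animals, and both it and Ssr4 were at the floor throughout. These values speak of the probe sets and not of the genes. A further 20 probe sets of 12 genes were tested beside the representatives, among them others of Hyou1, P4hb and Edem1, and none passed in any comparison. In E against V, 9 of 15 such probe sets with a tested representative had its sign, and in E+P against fat pads 7 of 15. Canx and Sel1l had 2 tested probe sets each and Pdia6 had 3, and the values given for them are those of the representative. In E against V the other Canx probe set was at 0.18, against -0.08 for the representative.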

How the data were processed

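Total RNA from 20 glands or fat pads was hybridised to 3 Affymetrix array types, 60 arrays in all, joined to animals by group and replicate number. Signal intensities were deposited by the authors on a linear scale; MAS5 is the tool named in the submitters' processing notes, and its version is not given in the sources used here. Groups follow the titles. The description field of the V samples names progesterone, whereas title, treatment protocol and design text give oil. Arrays were rescaled to a common 2% trimmed mean, values were floored at the 25th percentile per array type, and log2 was taken. Testing required a signal above the 50th percentile in at least 3 animals, which kept 23062 of 36899 probe sets. The model (limma 3.58.1, R 4.3.3) had 1 mean per group and an intensity trend; p-values were two-sided and adjusted over all tested probe sets by Benjamini-Hochberg. Scripts were tested on simulated data. The number of arrays limits precision. The members and lists were chosen with earlier results of these data known. Values in every animal are given for genes past the threshold and for a named set, and differences for these and, among genes outside that set, for the 3 of smallest adjusted p per comparison; a few others were added after their values were seen. Alternatives covered scaling, floor, filter, variance model, samples fitted, probe set and covariates.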

Additional observations from a re-analysis of the deposited data

Results flagged for a closer look

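The following 4 values stood apart from their own group by Dixon's criterion, all on the log2 scale: Hsp90b1 in E 2 at 11.20 (other E glands 10.38 to 10.45), Manf in E+P 2 at 8.15 (other E+P glands 7.79 to 7.88), Pdia6 in V 4 at 6.67 (other V glands 7.27 to 7.39) and Sec61a1 in P 3 at 8.72 (other P glands 9.45 to 9.58). These are 4 of 116 groups of values examined (3.45%), and chance alone marks about 1 in 20 such groups. V 4 also had the highest lymphocyte score of its group, 1.32, and the highest Gapdh ratio of the V glands, 3.69.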

How the results depend on the processing

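Tmed3, Derl1 and Rcn1 kept their direction under all alternatives in the comparisons where they passed. With only the groups compared in the fit, the number of genes past the threshold was 0 in E against V and 0 in E+P against E. It was also 0 in both with the lymphocyte score or the Gapdh ratio as a covariate, the latter added after seeing the data. Over all probe sets the number in E against V was 41 in the main fit and 28, 10 and 28 in these fits, in that order. In E+P against E the number over all probe sets was 33 in the main fit and 10, 16 and 10 in these. No gene passed in E+P against E with the replicate number as a replicate block (Tmed3 -0.71, adjusted p = 0.0766) or with V 4, E 1 and E+P CFP 1 left out. There 2 and 16 of all probe sets passed. Under the block Rcn1 also lost its call in E+P against E+P CFP (0.53, adjusted p = 0.0858) and no other call changed. Rcn1 lost this call too with quantile normalization (0.43, adjusted p = 0.0996) and with median scaling (0.34, adjusted p = 0.217). The same held with only the groups compared (0.56, adjusted p = 0.0924) and with V 4, E 1 and E+P CFP 1 left out (0.48, adjusted p = 0.168). The replicate numbers were not taken as pairs because the labels do not say that they mark a shared animal, litter or day. In deviations from group means, same-numbered animals of different groups correlated at a median of 0.049 and others at -0.028. These correlations do not settle whether the numbers mark pairs. With the Gapdh ratio the median was 0.013 in E+P against E and -0.096 in the interaction, and Pdia6 in E against V was -0.030, against 0.68 without it. Median scaling gave medians of -0.053 in E+P against V and -0.24 in E+P against E+P CFP. The skeletal muscle score, added after seeing the data, gave 0 genes and a median of -0.21 in E+P against E+P CFP. Over all probe sets 314 passed there, against 1823 without the score. Leaving out 1 animal, the number of genes past the threshold ran from 0 to 1 in E against V, E+P against E and E+P against V, and from 2 to 4 in E+P against E+P CFP. Over all probe sets these fits gave 13 to 145, 11 to 37, 32 to 141 and 1088 to 1996, in the same order. The median ran from 0.026 to 0.24 in E against P. Dim genes are measured least well.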
